A study of Homo sapiens with 4 samples.

Results

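The human mitochondrial chromosome carries 37 annotated genes, and each was examined here for peaks of RNA in an SRSF1 antibody pulldown. They were taken as every gene of the annotation deposited with the series whose name starts with MT-, 37 of 58735 genes, together with every peak summit called on chromosome MT. RKO cells, which come from a human colorectal carcinoma, were used as wild type cells and as cells that overexpress ZCCHC7 (ZCCHC7-OE), a zinc knuckle protein of a nuclear RNA surveillance complex. Each genotype had 1 library made after immunoprecipitation (IP), labelled SRSF1 antibody, and 1 library labelled input, 4 libraries in all. The label's protocol also describes an anti-m6A step and does not say on which libraries it acted. How ZCCHC7 was overexpressed is not given in the sources used here, and neither list held a summit in ZCCHC7 (0 in wild type, 0 in ZCCHC7-OE), so that label was not checked. With 1 library per group there was no replicate, and no test between genotypes was possible. Every interval is a 95% interval that covers counting error only, as if each sequenced fragment were an independent molecule. Duplicates were kept, so the intervals can be too narrow even for counting error.

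Mitochondrial RNA is copied from both strands as long precursors that run through many genes. The tRNAs that lie between most of the other genes are cut out, which frees the rRNAs and mRNAs, and these transcripts have no introns. The rRNAs MT-RNR1 and MT-RNR2 form the small and large subunits of the mitochondrial ribosome. The mRNAs encode subunits of respiratory complex I (the ND genes), complex III (MT-CYB), complex IV (the CO genes) and the ATP synthase (MT-ATP6 and MT-ATP8). SRSF1 is best known as a nuclear and cytoplasmic protein that binds purine-rich sequence in spliced transcripts.

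After IP the libraries had 1070075 (wild type) and 690876 (ZCCHC7-OE) tags. The inputs were smaller, with 142404 and 97545. A tag is 1 mapped sequenced fragment as the peak caller counted it. Tags at a summit are given per 1000000 tags of the IP library, because the libraries differed in depth. The smaller ZCCHC7-OE libraries give wider intervals for the same abundance.

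In both genotypes peaks were called at 1 site near the 5′ end of MT-RNR2 and along 1 continuous stretch from MT-CO2 to MT-ND4, and in wild type also at 1 site outside the genes. Wild type had 14 mitochondrial summits in 3 called regions and ZCCHC7-OE had 14 in 2. Summits fell in 8 of the 37 genes in wild type and in 9 in ZCCHC7-OE. Over the whole annotation 0.215% of genes held a summit in wild type and 0.203% in ZCCHC7-OE. By class, 1 of 2 rRNA genes and 7 of 13 protein-coding genes held a wild type summit, and no tRNA gene (0 of 22) did. In ZCCHC7-OE the counts were 1 of 2 rRNA genes, 6 of 13 protein-coding genes and 2 of 22 tRNA genes. The genes with a summit in both lists numbered 7: MT-RNR2, MT-CO2, MT-ATP8, MT-ATP6, MT-CO3, MT-ND4L and MT-ND4. All 10 genes with a summit in either list are annotated on the + strand, which carries 28 of the 37 genes, but the lists give no strand, so the strand of the recovered RNA is unknown.

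MT-RNR2, the 16S rRNA of the large ribosomal subunit (MT, 1671 to 3229), held the summit with the most IP tags in either list. In wild type 10985 IP tags covered position 1827, which is 10266 per 1000000 (10075 to 10459). In ZCCHC7-OE 6876 tags covered position 1826, which is 9953 per 1000000 (9719 to 10191). The summits of the 2 libraries thus lay 1 bp apart, about 156 bases after the start of the gene, and had nearly the same height. The called region was short, 179 bp in wild type (1756 to 1934) and 200 bp in ZCCHC7-OE (1737 to 1936), or 11.5% and 12.8% of the gene.

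The input libraries were also high at this site, so the enrichment there was small. The caller's background decoded to 748 input tags at the summit in wild type, or 5253 per 1000000 input tags, and 421 in ZCCHC7-OE, or 4316 per 1000000. IP over input was 1.95 in wild type (1.82 to 2.11) and 2.31 in ZCCHC7-OE (2.09 to 2.55). By the authors' fold enrichment, which adds 1 to both sides, the site ranked 283 of 285 wild type summits and 233 of 238 ZCCHC7-OE summits. The site with the most recovered tags was therefore among the least enriched summits of both lists. The ratio of IP tags per 1000000, ZCCHC7-OE over wild type, was 0.97 (0.94 to 0.999), the same ratio for the input was 0.82 (0.73 to 0.93), and IP over input was 1.18 times as high in ZCCHC7-OE (1.04 to 1.34). These intervals compare 4 libraries and not the genotypes.

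**Figure D1:**
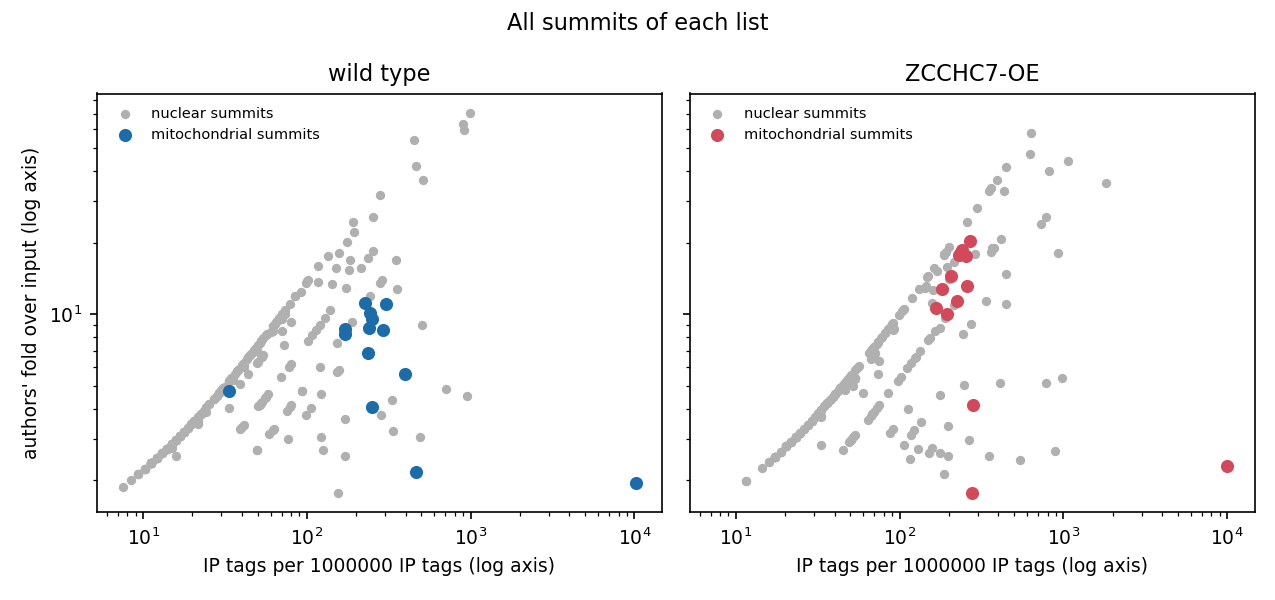
Each point is a summit, with IP tags per 1000000 IP tags on the x axis and the authors' fold over input on the y axis, both logarithmic, wild type on the left and ZCCHC7-OE on the right. Mitochondrial summits are coloured and nuclear ones grey. The MT-RNR2 summit stands at the far right, at 10266 and 9953 tags per 1000000, with a fold of 1.95 and 2.30.

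The stretch from MT-CO2 to MT-ND4 was called as 1 region of 3768 bp in wild type (MT, 7664 to 11431) and of 3767 bp in ZCCHC7-OE (MT, 7708 to 11474), and 3724 bp were common to both. It was the longest of the 229 wild type regions and of the 194 ZCCHC7-OE regions, whose median lengths were 210.0 and 227.0 bp, but the next longest regions were nearly as long, 3712 and 3472 bp. It began 79 bp into MT-CO2 in wild type and 123 bp into it in ZCCHC7-OE, and it ended 672 and 715 bp into MT-ND4. The wild type region contained 12 summits, the ZCCHC7-OE region 13. Neighbouring summits lay 152 to 573 bp apart in wild type and 175 to 492 bp in ZCCHC7-OE, more than the 147 and 154 bp to which tags were extended, so no tag was counted at 2 summits. Added up, the summits held 3470 wild type IP tags (0.324% of the library) and 2088 in ZCCHC7-OE (0.302%). Heights ran along the stretch from 182 to 499 wild type tags and from 115 to 195 ZCCHC7-OE tags, a range of 2.74-fold and 1.70-fold, and the ends of each range lay outside each other's intervals.

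**Figure D2:**
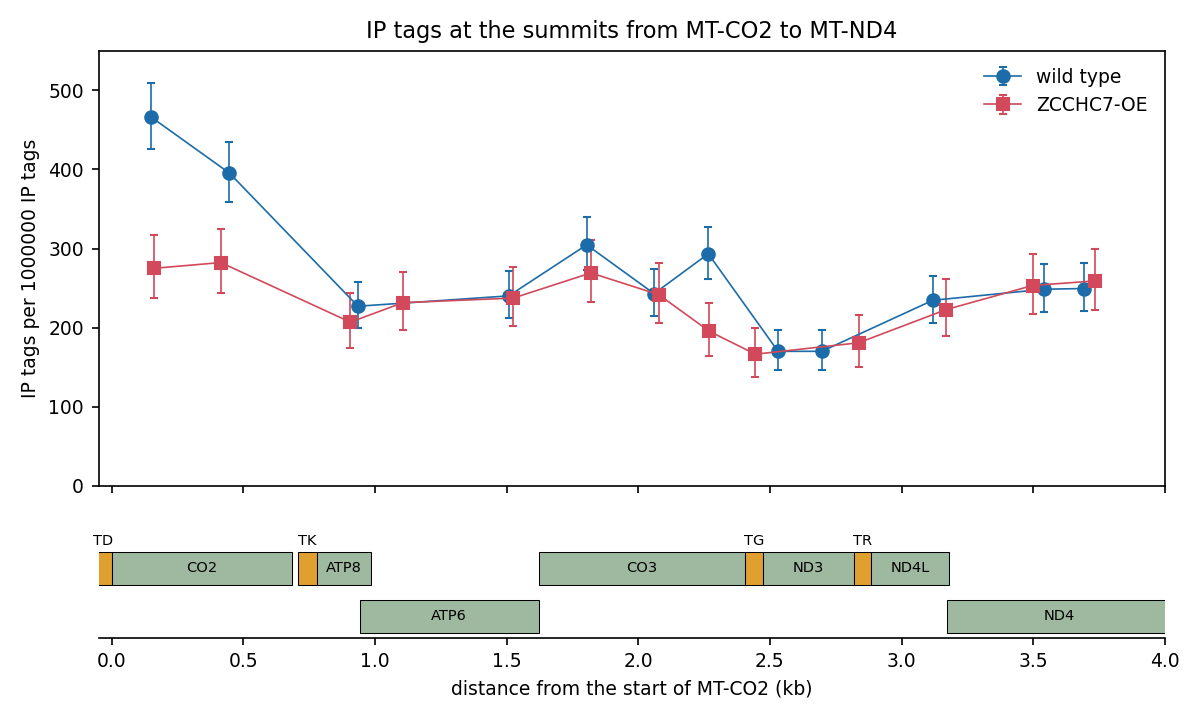
IP tags per 1000000 IP tags (y axis, with 95% exact Poisson intervals) at each summit, by distance from the start of MT-CO2 in kb (x axis), for wild type (circles) and ZCCHC7-OE (squares), over a map of the genes with tRNA genes in orange. Wild type runs from 466 in MT-CO2 to 170 in MT-ND3, and the libraries differ most at the summits in MT-CO2 and at the last one in MT-CO3.

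Complex IV, the terminal oxidase of the respiratory chain, was represented by MT-CO2 and MT-CO3. MT-CO2 (7586 to 8269), the subunit that takes electrons from cytochrome c, held 2 summits in each list. In wild type these were at 7735 with 499 IP tags, 466 per 1000000 (426 to 509), and at 8033 with 423 tags, 395 per 1000000. In ZCCHC7-OE they were at 7745 with 190 tags, 275 per 1000000 (237 to 317), and at 8000 with 195 tags, 282 per 1000000. Both wild type values were the highest of the stretch and lay above both ZCCHC7-OE values. MT-CO3 (9207 to 9990), a core subunit of the same enzyme, held 3 summits in each list. Its wild type summits at 9390, 9646 and 9852 had 326, 260 and 314 tags, or 305, 243 and 293 per 1000000. Its ZCCHC7-OE summits at 9406, 9664 and 9856 had 186, 167 and 135 tags, or 269, 242 and 195 per 1000000. The libraries were alike at the first 2 of these sites and differed at the last. MT-CO1, the catalytic subunit, held no summit in either list.

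The ATP synthase genes lie between them and overlap one another, and are translated from a shared mRNA. MT-ATP8 (8366 to 8572) held 1 summit in each list, at 8521 in wild type with 243 tags, 227 per 1000000 (199 to 258), and at 8492 in ZCCHC7-OE with 143 tags, 207 per 1000000 (174 to 244). MT-ATP6 (8527 to 9207), the subunit of the proton channel, held 1 wild type summit at 9094 with 257 tags, 240 per 1000000 (212 to 271). In ZCCHC7-OE it held 2, at 8692 with 160 tags and at 9111 with 164 tags, 232 and 237 per 1000000. At both genes the intervals of the genotypes overlapped. No summit lay in the stretch common to MT-ATP8 and MT-ATP6, so each was placed in 1 gene. The wild type summit at 8521 lay just before MT-ATP6 begins, and tags extended to 147 bp there can cover both genes. The same holds, with tags extended to 154 bp, for the ZCCHC7-OE summit of MT-ND4L at 10756, just before MT-ND4 begins at 10760.

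Complex I, the NADH dehydrogenase, was represented by MT-ND3, MT-ND4L and MT-ND4, membrane subunits of that enzyme. MT-ND3 (10059 to 10404) held 2 wild type summits, at 10117 and 10283, with 182 tags each, 170 per 1000000 (146 to 197). It held none in ZCCHC7-OE, although it lay whole within the called region of that list too. The nearest ZCCHC7-OE summits, at 10031 and 10423, lay in the tRNA genes on either side. MT-ND4L (10470 to 10766) held 251 tags at 10705 in wild type, 235 per 1000000 (206 to 265), and 154 at 10756 in ZCCHC7-OE, 223 per 1000000 (189 to 261). MT-ND4 (10760 to 12137) held wild type summits at 11129 and 11281 with 266 and 267 tags, 249 and 250 per 1000000. In ZCCHC7-OE it held summits at 11084 and 11321 with 175 and 179 tags, 253 and 259 per 1000000. MT-ND3 was thus the lowest protein-coding gene with a wild type summit. At MT-ND4L and MT-ND4 the intervals of the libraries overlapped. No wild type summit there lay within 20 bp of a ZCCHC7-OE one, so these values do not compare the libraries at the same site.

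The tRNA genes inside the stretch were called with their neighbours, and summits within them appeared only in the ZCCHC7-OE list. MT-TG (9991 to 10058), the tRNA for glycine, held a ZCCHC7-OE summit at 10031 with 115 tags, 166 per 1000000 (137 to 200). MT-TR (10405 to 10469), the tRNA for arginine, held one at 10423 with 125 tags, 181 per 1000000 (151 to 216). These genes flank MT-ND3, whose wild type summits had 170 per 1000000, within both intervals. The values stand at different positions, so they do not compare the libraries at the same site. Both tRNA genes, like MT-TK, lay whole within the called region of both lists. Tags were extended to 147 or 154 bp, longer than the tRNA genes (65 to 70 bp), so a summit in one is not shown to come from the mature tRNA.

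In order of the tag density at the highest summit, wild type ran MT-RNR2, MT-CO2, MT-CO3, MT-ND4, MT-ATP6, MT-ND4L, MT-ATP8 and MT-ND3. From MT-ND4 to MT-ATP8 the values were 250, 240, 235 and 227 per 1000000, which do not differ beyond their intervals. In ZCCHC7-OE the order was MT-RNR2, MT-CO2, MT-CO3, MT-ND4, MT-ATP6, MT-ND4L, MT-ATP8, MT-TR and MT-TG. From MT-CO2 to MT-ND4L it ran from 282 to 223 per 1000000, with neighbours inside each other's intervals. A summit value counts the tags over 1 position and does not scale with the length of the gene.

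The other 27 genes held no summit in either list. They were the 12S rRNA MT-RNR1, 6 protein-coding genes (MT-ND1, MT-ND2, MT-CO1, MT-ND5, MT-ND6 and MT-CYB) and 20 tRNA genes. MT-TK lay in the called region without a summit, and no called region touched the rest. No summit means no enrichment over input that the caller detected at this depth, not that RNA of these genes was not recovered.

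From MT-ATP8 onwards the local input background was 2.74 to 6.35 times as high in wild type as in ZCCHC7-OE at summits paired within 50 bp. At MT-CO2 it was 1.07 and 1.39 times as high. The caller takes as background the highest of the genome-wide mean, the input tags at the position and those in windows of 1 kb and 10 kb, per the file headers, and the value at each of the 28 mitochondrial summits decoded to a whole number of input tags in one of these. In wild type it ran from 1.91 tags at MT-ND3 to 30.05 at the first MT-CO2 summit along the stretch, with a median of 3.00. In ZCCHC7-OE it ran from 0.323 tags to 14.8, with a median of 0.462. Per 1000000 input tags the medians were 21.1 and 4.74. At several pairs the window differed between the lists: at MT-ATP6 it was the position in wild type (3 tags) and 10 kb in ZCCHC7-OE (21 tags). The ratios at paired summits therefore do not all compare the same window, and they rest on few input tags. The highest values in both lists were those of MT-CO2, 211 and 64.7 per 1000000 in wild type and 152 and 60.5 in ZCCHC7-OE. In wild type these came from 2044 and 627 input tags in the 10 kb window. The MT-CO2 summits were the 2 of 12 and 2 of 13 that lay within 5 kb of the end of MT-RNR2, the reach of that window, and the part of MT-RNR2 tags in these backgrounds was not tested.

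**Figure D3:**
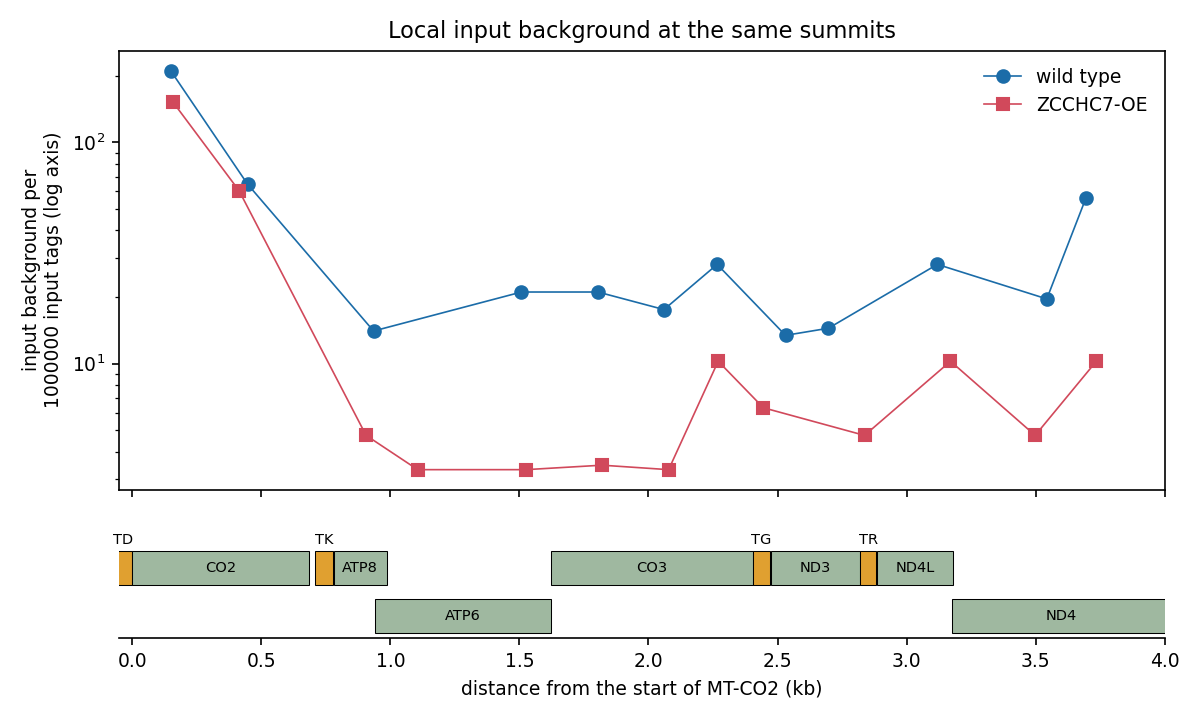
The caller's local input background per 1000000 input tags (y axis, logarithmic) at the summits of the stretch, by distance from the start of MT-CO2 in kb (x axis), for wild type (circles) and ZCCHC7-OE (squares), over the gene map. The lines lie close at MT-CO2 (211 against 152 at the first summit) and apart from MT-ATP8 onwards (14.04 against 4.74 there). At several sites the window behind the background differs between the lists.

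The authors' fold has this background in its denominator. It was 2.17 and 5.61 at the wild type MT-CO2 summits and 4.06 to 11.1 at the other summits of the stretch, and in ZCCHC7-OE 1.76 and 4.14 against 10.0 to 20.4. Without the added 1, IP tags per 1000000 over background per 1000000 were 11.4 at MT-ATP6 position 9094 in wild type and 71.6 at 9111 in ZCCHC7-OE. At MT-CO3 they were 14.5 at 9390 and 77.5 at 9406. At the first MT-CO2 summit they were 2.21 and 1.82. The IP tags at the MT-ATP6 and first MT-CO3 sites had ratios near 1, and the background was 6.35 and 6.07 times as high in wild type as in ZCCHC7-OE. These backgrounds rest on very few tags (3 at each of these wild type positions, and 21 and 22 in the 10 kb around the ZCCHC7-OE positions), so no interval is given for the enrichment.

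Between the genotypes, the ratios of IP tags at mitochondrial summits were near or below 1, while the median over all summits was above 1. Summits of the lists that were each other's nearest within 20 bp were paired, which gave 153 pairs, 6 of them mitochondrial. The ratio of IP tags per 1000000, ZCCHC7-OE over wild type, was 0.97 at MT-RNR2, 0.59 at the first MT-CO2 summit (0.50 to 0.70) and 0.99 at MT-ATP6 (0.81 to 1.21). At the MT-CO3 summits it was 0.88 (0.73 to 1.06), 0.99 (0.81 to 1.21) and 0.67 (0.54 to 0.82). All 6 ratios lay below 1, as did those of 32 of the 153 pairs (20.9%). Of the 6, 3 had intervals below 1, while 4.58% of all pairs had an interval below 1 and 40.5% had one above 1. Whether an interval excludes 1 also depends on depth. MT-RNR2, with 10985 and 6876 tags, did so at 0.97, while nuclear SNORD3A, with 1010 and 617, did not at 0.95 (0.85 to 1.05). The median ratio was 0.93 over the mitochondrial pairs and 1.30 over all pairs, and each of the 6 intervals lay below 1.30, as did those of 26 of the 153 pairs. Added up, the 5 pairs of the MT-CO2 to MT-ND4 stretch gave 0.79 (0.72 to 0.86), and the same ratio was 0.87 without the MT-CO2 pair. These pairs reach only as far as MT-CO3. All but the last MT-CO3 pair lie opposite a nuclear copy described below, where values are uncertain. Pairing within 50 bp, which adds MT-CO2 at 8033 (0.71, 0.60 to 0.85), MT-ATP8 (0.91, 0.74 to 1.12) and both MT-ND4 summits (1.02 and 1.04), gave 0.83.

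**Figure D4:**
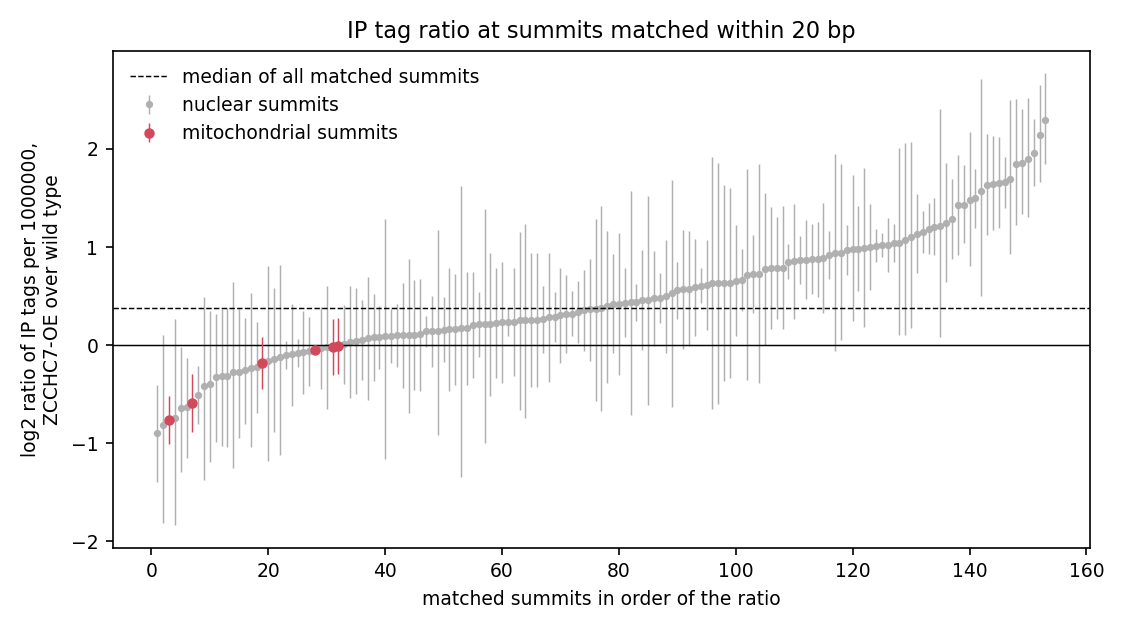
Log2 ratio of IP tags per 1000000, ZCCHC7-OE over wild type (y axis, with 95% exact conditional binomial intervals), for the 153 paired summits in order of the ratio (x axis). The 6 mitochondrial pairs (red) lie between -0.76 and -0.01, below the median of all pairs, 0.38 (dashed line).

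Set beside the lists as a whole, mitochondrial summits were deep and mostly passed a stricter call. Their median was 263 wild type and 165.5 ZCCHC7-OE IP tags, against 43 and 48 over all summits. The authors' q-value was at or under 0.05 for 13 of 14 in each list, against 48.4% of all wild type and 55.5% of all ZCCHC7-OE summits. The exceptions were the wild type summit outside genes and, in ZCCHC7-OE, the first MT-CO2 summit. The background was at the genome-wide mean, so that no local input value exceeded that mean, at 0 of 28 mitochondrial summits and at 164 of 285 and 129 of 238 of all summits. The median authors' fold was 8.40 over the wild type mitochondrial summits and 4.18 over the wild type list, and 12.9 and 5.01 in ZCCHC7-OE. Without the added 1 the order turned: median IP over background was 11.6 over the wild type mitochondrial summits and 22.7 over the list, and 32.3 and 34.7 in ZCCHC7-OE. The mitochondrial summits were therefore not more enriched than the lists on both scales.

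A single summit lay outside the 37 genes. It was called in wild type at position 16233 (MT, 16127 to 16319), 210 bp past the end of MT-TP in the control region, the non-coding stretch that holds the start of heavy-strand replication. It held 36 tags, 33.6 per 1000000 (23.6 to 46.6), at an authors' fold of 4.74. This was the shallowest mitochondrial summit, and ZCCHC7-OE had none there.

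Nuclear copies of mitochondrial DNA can take up the same tags. The annotation holds 396 pseudogenes named as copies of mitochondrial genes, of which 3 had a summit in wild type cells and 2 in ZCCHC7-OE cells, all in 1 block on chromosome 1 from 629062 to 634922. Over all annotated genes the shares with a summit were 0.215% and 0.203%. The block carries copies of 7 genes from MT-ND1 to MT-CO3 in mitochondrial order, and 6 of their starts lay 625169 to 625171 bp from those of the mitochondrial genes. It therefore stands opposite the mitochondrial positions 3893 to 9753. How tags that fit both places were assigned is not given in the sources used here. Values on either side are therefore uncertain over this range. Only copies annotated as pseudogenes were searched, and those outside the block were not set against mitochondrial positions. Values outside this range, MT-RNR2 included, are thus not shown to be free of the same uncertainty. The stretch from MT-CO2 to MT-ND4 ran past the range covered by the block. In wild type the 6 summits opposite the block had 227 to 466 tags per 1000000 and the 6 beyond it 170 to 293. In ZCCHC7-OE the 7 opposite it had 207 to 282 and the 6 beyond it 166 to 259.

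The wild type summits of the block, 16.8 to 107 tags per 1000000, were lower than those of the mitochondrial stretch. In ZCCHC7-OE the highest block summit, 162 per 1000000 (133 to 195), did not differ beyond the intervals from MT-TG at 166 (137 to 200). In MTND1P23, a copy of part of MT-ND1, the summit at 629305 held 115 wild type tags (107 per 1000000) and the one at 629298 held 48 ZCCHC7-OE tags (69.5 per 1000000), a ratio of 0.65 (0.45 to 0.91). In MTND2P28, a copy of MT-ND2, a summit at 629956 held 18 wild type tags, and ZCCHC7-OE had none. In MTATP6P1, a copy of MT-ATP6, summits at 634028 and 634019 held 114 and 63 tags, a ratio of 0.86 (0.62 to 1.17). The lncRNA gene AL669831.3 spans the block. MT-ND1 and MT-ND2 themselves held no summit.

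The remaining site of the block had its summit at 632706 in wild type, with 105 tags (98.1 per 1000000), and at 632712 in ZCCHC7-OE, with 112 (162 per 1000000). Its ratio was 1.65 (1.26 to 2.18), an interval that holds the median of all pairs, 1.30, and 40.5% of all pairs had an interval above 1. It lies between the copies of MT-CO1 and MT-CO2, opposite MT-TD, the tRNA for aspartate. Both called regions (632555 to 632821 and 632565 to 632829) hold the hairpin that RefSeq (GRCh38.p14) annotates as MIR12136 on the - strand, chr1:632615-632685. Shifted by the same distance, this hairpin falls on mitochondrial positions 7446 to 7516, where MT-TS1, a tRNA for serine, lies on the - strand (7446 to 7514). The hairpin is shown because it is the annotated small RNA inside this site, with the bases of the mature hsa-miR-12136 in capitals.
MIR12136 hairpin: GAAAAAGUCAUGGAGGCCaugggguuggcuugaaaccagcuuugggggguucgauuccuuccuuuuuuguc
The summits lay 21 and 27 bp beyond the hairpin on the side of higher coordinates, where the hairpin begins on the - strand. The lists give no strand, so neither the hairpin nor the tRNA copy is shown to be the recovered RNA.

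Nuclear genes that serve the same machinery held no summits. None of 99 genes for respiratory chain and ATP synthase subunits and their assembly factors (named NDUF, SDH, UQCR, COX4 to COX8 or ATP5), 78 mitochondrial ribosomal protein genes and 25 genes for mitochondrial transcription and RNA handling, such as POLRMT, TFAM and LRPPRC, held a summit in either list. With a background of 0.215% and 0.203% of all genes, counts of 0 in lists of this size are near the background and are no result about these genes. The authors' deposited tables of splicing events between the genotypes list 46 events, 0 of them on chromosome MT and 0 in these nuclear genes. Mitochondrial transcripts have no introns, and these nuclear genes are 202 of the 58735 annotated genes. Neither count of events is therefore a result about them.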

How the data were processed

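Per the file headers, MACS 2.1.0.20150420 made each peak list at a p-value threshold of 0.005, IP against input of each genotype, with tags extended to 147 bp (wild type) or 154 bp (ZCCHC7-OE) and all duplicates kept. The submitters' processing notes also list HOMER and FastQC 0.11.5. An aligner is not given in the sources used here. The lists were tied to the genotypes by the initials in the headers. As signal, the authors deposited a pileup: how many extended IP tags cover the summit, scaled to the input total. Their deposited fold sets pileup plus 1 over local input background plus 1. The deposited significance is -log10 of the p-value and q-value. The authors' deposited splicing tables give a p-value per event.

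Pileup times IP tags over input tags gave IP tags, whole within 0.1 at every summit, and the fold then gave the background. Each summit was placed in the gene holding it, by the deposited annotation, whose 37 mitochondrial genes all have the same start and end in RefSeq GRCh38.p14. Intervals are exact (Poisson for tags, conditional binomial for ratios, conditional odds ratio for IP over input between genotypes). Software was SciPy 1.17.1, NumPy 2.4.6 and Matplotlib 3.10.9 under Python 3.11.15. Recovery of tags and background, ratio intervals and pairing were tested on simulated data, with backgrounds of whole tags only. Gene placement, background windows, the odds ratio and the nuclear copies were not tested in this way. No molecular identifiers are described, so tags are not independent molecules. All mitochondrial genes and summits were named; genes and lists were chosen with earlier results of these data known.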

Additional observations from a re-analysis of the deposited data

How the results depend on the processing

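Of 34 alternative values, 19 were close to the value reported (a count by 1.5 times, other values by their interval), 15 moved and 0 reversed. With the summit of highest fold of each region alone, 2 mitochondrial genes held a summit in wild type cells and 2 in ZCCHC7-OE, by construction. The mitochondrial share of summits (wild type 4.91%, ZCCHC7-OE 5.88%) was 1.31% and 1.03% of called regions and 9.42% and 9.85% of summits at a q-value of 0.05; the cause was not tested. Paired mitochondrial summits numbered 3 within 10 bp and 10 within 50 bp instead of 6. The MT-RNR2 ratio was 0.724 relative to the median of nuclear pairs and 0.743 relative to that of all pairs. The ratio of the MT-CO2 to MT-ND4 stretch was 0.588 and 0.604 on these scales and 0.619 within 10 bp. Chosen after seeing the data, it was 0.858 at the highest summit of each gene and 0.873 without MT-CO2. The planned motif search was not run because no sequence of the mitochondrial chromosome was used here. No paired analysis was possible because each group has 1 library. Depth limits the input values: at MT-ATP8 to MT-ND4 the background is 8 tags or fewer.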

Other observations

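Within the MT-CO2 to MT-ND4 stretch, the 2 MT-CO2 summits had a mean of 431 IP tags per 1000000 in wild type and the other 10 a mean of 238, a ratio of 1.81. In ZCCHC7-OE the means were 279 and 224 (11 other summits), a ratio of 1.24. MT-CO2 was singled out after its values were seen.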
